A study of Rattus norvegicus with 8 samples.

Results

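Aif1, Cd68, Tyrobp and Fcer1g are genes of microglia, the resident immune cells of the spinal cord, and of macrophages. They were taken from the deposited table by Ensembl identifier: ENSRNOG00000000853 for Aif1, ENSRNOG00000037563 for Cd68, ENSRNOG00000020845 for Tyrobp and ENSRNOG00000024159 for Fcer1g. All 4 identifiers were among the 32883 listed. The table holds identifiers only, so the pairing of these 4 with gene symbols came with the selection rule and was not checked against an annotation. Spinal cord RNA came from Sprague Dawley rats. The 4 injured libraries were taken 4 days after hemisection, a one-sided section of the cord, at thoracic level 9, and the 4 uninjured libraries came from rats with no spinal cord injury. By the title the tissue is upper lumbar cord, while the sample labels say upper spinal cord. Age, sex and any sham operation, or whether libraries came from separate rats, are not stated in the labels used here, so p-values measure the spread between libraries, which may be technical. The series' design text describes the question as the effect of the injury on cord that is intact; whether the sampled segment was undamaged was not checked.

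Microglia survey the cord with motile processes, and after damage to nervous tissue they and incoming macrophages take up debris. Aif1 encodes IBA1, a calcium-binding protein of the actin cytoskeleton and the usual stain for microglia. Cd68 encodes a membrane glycoprotein of lysosomes and endosomes in phagocytic cells. Tyrobp (DAP12) and Fcer1g (the Fc receptor gamma chain) encode small transmembrane adaptors that carry an immunoreceptor tyrosine-based activation motif. Tyrobp signals for receptors such as TREM2, and Fcer1g for Fc receptors and several lectin receptors. Fcer1g is also used by mast cells, basophils and other immune cells.

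Values are counts of unique molecular identifiers (UMIs), random tags that mark single molecules at the 3' end of transcripts, and are given here per 1000000 UMIs of the library total (CPM). Library totals ran from 195113 to 320199 UMIs in injured and from 112264 to 221177 in uninjured cord. Of the 3073 genes that passed a filter on low counts, edgeR's quasi-likelihood test called 66 higher after injury (2.15%) and 4 lower (0.13%), at a Benjamini-Hochberg adjusted p below 0.05. The filter kept 3 of the 4 genes, Aif1, Tyrobp and Fcer1g, and removed Cd68. Aif1, at 3 to 9 UMIs per uninjured library, passed it only through the injured libraries.

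Aif1, Tyrobp and Fcer1g were each at a higher level in every injured library than in any uninjured library, and the test called Tyrobp and Aif1. Tyrobp rose 2.72-fold and Aif1 2.60-fold in the fitted model. Tyrobp kept its call in all 20 alternative settings, while Aif1 lost its call in 10 of 19. Because Aif1 entered the test only through the injured libraries, its call is a description. Fcer1g was 1.56-fold higher in the same model, which did not pass the test unless libraries of the same number were treated as pairs. Cd68 was almost undetected, with 14 UMIs in all 8 libraries together, and its groups cannot be parted library by library at this depth. A separation of the groups on the high side was seen for 7.52% of the tested genes, and for 4.2% of the 12612 genes with any count. In bulk RNA, more cells of a type and more RNA per cell cannot be told apart.

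**Figure D1:**
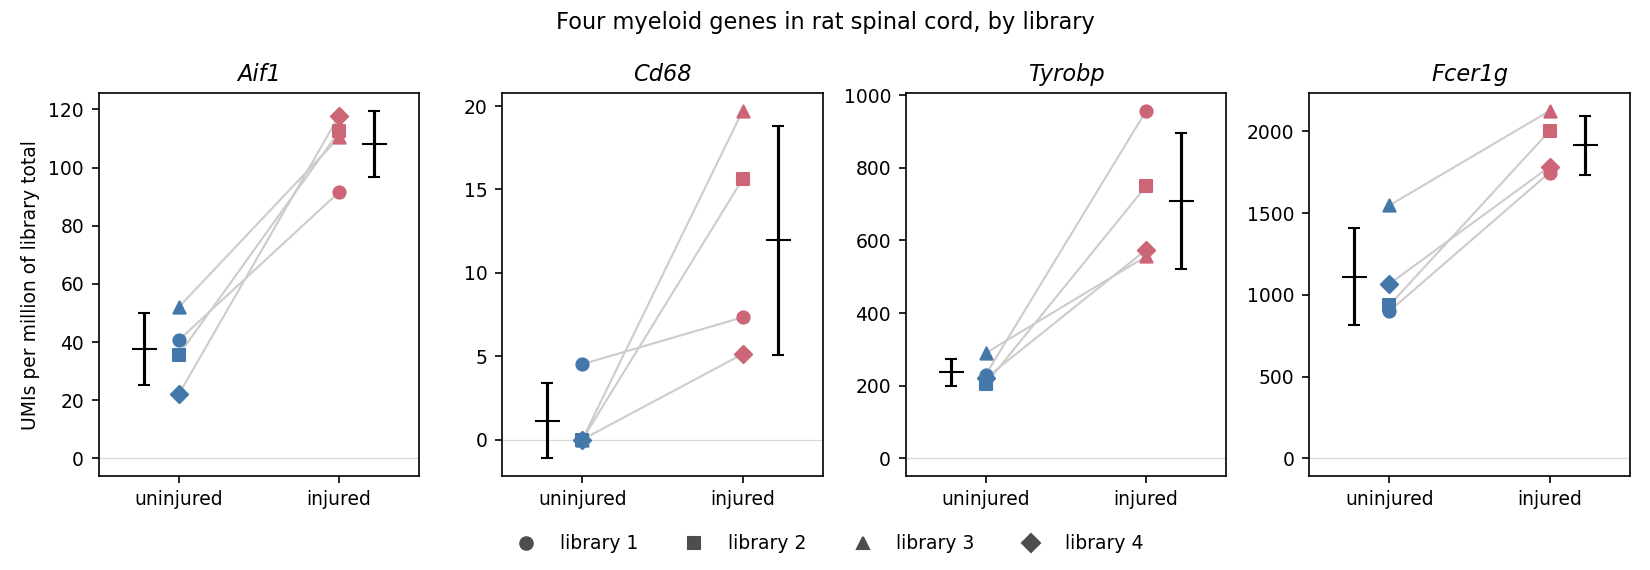
CPM of library total (vertical axes, linear, each with its own range) for Aif1, Cd68, Tyrobp and Fcer1g in 4 uninjured and 4 injured libraries. Points are libraries, grey lines join libraries of the same number, and black bars give the mean ± SD of each group; all injured points lie above all uninjured points for Aif1, Tyrobp and Fcer1g, while for Cd68 the nearest points of the groups are 1 UMI each.

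Tyrobp, the adaptor of TREM2 and related receptors, stood at 956, 749.5, 556 and 574 CPM in injured libraries 1 to 4. In uninjured libraries 1 to 4 it stood at 231, 205, 289.96 and 221 CPM. Injured libraries 1 and 2 were the highest, and the lowest injured library was still clearly above the highest uninjured one. The group means were 709 ± 187 CPM after injury and 237 ± 37.2 CPM without it (SD, n = 4 each), a ratio of 3.0. On the scale of the fitted model, which sets library sizes by TMM (trimmed mean of M-values) rather than by totals, the log2 fold change was 1.44 (SE 0.24, edgeR adjusted p = 0.00308). By size it ranked 61st among the 3073 tested genes and by p-value 15th. Tyrobp kept its call when any 1 library was left out (edgeR adjusted p from 0.0027 to 0.0243). The injured libraries were also deeper. With every library thinned to the smallest total in a single random draw, the log2 fold change of Tyrobp was 1.36 (edgeR adjusted p = 0.00681).

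Aif1, the gene of the microglial stain IBA1, was counted 25, 36, 28 and 23 times in injured libraries 1 to 4 and 9, 4, 7 and 3 times in uninjured libraries 1 to 4. As a share of the library these counts were 91.6, 112, 110.4 and 118 CPM after injury. Without injury they were 40.7, 35.6, 52.0 and 22.1 CPM. The injured libraries lay close together, and uninjured library 4 was the lowest of all. Its 3 UMIs allow a level from 4.55 to 64.5 CPM (exact Clopper-Pearson 95% interval, counting error only), a range that takes in the other uninjured libraries. The mean was 108 ± 11.4 CPM after injury and 37.6 ± 12.4 CPM without it (SD, n = 4 each), a ratio of 2.87. The fitted log2 fold change was 1.38 (SE 0.33, edgeR adjusted p = 0.0349), rank 68 among the tested genes. Without any 1 of the 8 libraries the log2 fold change stayed between 1.24 and 1.57, while the edgeR adjusted p rose to between 0.0503 and 0.128, so the call was lost each time. With the library number as a block it was kept with any 1 pair left out (edgeR adjusted p from 0.0246 to 0.0437). At equal depth, in the same single draw and over 1949 tested genes, the log2 fold change was 1.70 (edgeR adjusted p = 0.0257). The filter was applied again to the thinned counts, and Aif1 could pass it only through the injured libraries. A draw with high injured counts is therefore favoured, and this fold and call are a description. How far this value varies between draws was not tested.

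Fcer1g, the common adaptor of Fc receptors, had the most UMIs of the 4 genes, from 105 to 641 per library. It stood at 1748, 2002, 2125 and 1784 CPM in injured libraries 1 to 4. In uninjured libraries 1 to 4 it stood at 899.7, 935, 1546 and 1066 CPM. Uninjured library 3 was well above the other uninjured libraries and closest to the injured ones, yet below all of them. The means were 1915 ± 179.6 CPM after injury and 1112 ± 298 CPM without it (SD, n = 4 each), a ratio of 1.72. The fitted log2 fold change was 0.64 (SE 0.23, edgeR adjusted p = 0.189), rank 293 of the tested genes, so the difference did not pass the test over all genes. With the library number as a block it was 0.68 (SE 0.14, edgeR adjusted p = 0.00209), and that fit called 6.7% of the tested genes higher. No label calls the libraries paired, and the case for the block rests on correlations in these same counts. At equal depth without the block the value was 0.67 (edgeR adjusted p = 0.174).

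Cd68, the lysosomal glycoprotein used as a marker of phagocytic cells, had 2, 5, 5 and 1 UMIs in injured libraries 1 to 4. In the uninjured libraries it had 1 UMI in library 1 and 0 in libraries 2, 3 and 4. These are 7.33, 15.6, 19.7 and 5.13 CPM after injury and 4.52 CPM in uninjured library 1. A count of 0 allows up to 26.7, 22.3 and 22.1 CPM in uninjured libraries 2, 3 and 4 (3 counts of the library total), each above the highest injured value, so a difference from these libraries was not detectable at this depth one by one. Pooled over libraries, 13 of 1041860 UMIs after injury stand against 1 of 603934 without it, a ratio of 7.54 with an exact 95% interval from 1.13 to 320.2 that covers counting error only. The exact two-sided permutation test over the 8 libraries gave p = 0.029, the smallest that 4 against 4 allow, with the nearest libraries of the groups at 1 UMI each. In the edgeR fit without a filter, which called 1.51% of genes higher, Cd68 had a log2 fold change of 2.52 (SE 1.15, adjusted p = 0.483). Its fold depends on the prior count the model adds and is no bound.

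The 3 tested genes are placed among all tested genes in the plot of fold change against level. Their median log2 fold change was 1.38, against -0.03 over all 3073 tested genes and 1.70 over the 66 called higher. Tyrobp and Aif1 thus lay below the middle of the called genes in size. Tyrobp and Fcer1g, with at least 23 and 105 UMIs in each library, would have passed the filter on either group alone. Aif1, at 3 to 9 UMIs per uninjured library, passed it through the injured libraries, in which it was high. Its call, its rank, its separation of the groups and this median are therefore a description.

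**Figure D2:**
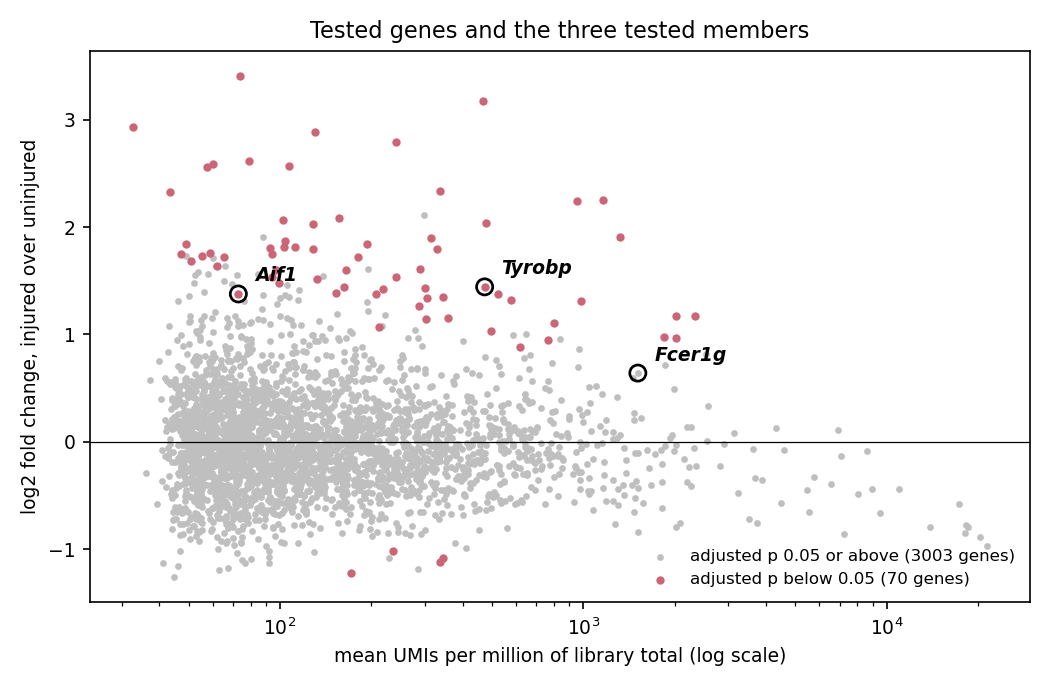
Log2 fold change of injured over uninjured cord (vertical axis) against mean CPM of library total (horizontal axis, log scale) for the 3073 tested genes, with genes past an adjusted p of 0.05 in red. Circles mark Aif1 at 1.38, Tyrobp at 1.44 and Fcer1g at 0.64, of which Aif1 and Tyrobp are in red.

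Library by library, each injured library exceeded the uninjured library of the same number for Aif1, Tyrobp and Fcer1g, as it did in all 4 pairs for 20.7% of the tested genes. Tyrobp was higher by 4.15-fold, 3.66-fold, 1.92-fold and 2.60-fold in pairs 1 to 4, on library totals. Fcer1g followed the same split, with 1.94-fold and 2.14-fold in pairs 1 and 2 and 1.37-fold and 1.67-fold in pairs 3 and 4. Aif1 was higher by 2.25-fold, 3.16-fold, 2.12-fold and 5.34-fold in pairs 1 to 4. All 3 genes differed least in pair 3, where the uninjured library was the highest of its group for each. Aif1 differed most in pair 4, a value set against the 3 UMIs of uninjured library 4.

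The spread within groups was set against counting noise, a measure that rises with the count at equal relative spread. For Aif1 it was no larger than counting noise, with a chi-square per degree of freedom of 0.309 in injured and 0.554 in uninjured libraries, where about 1 is the level of pure counting noise. Uninjured Tyrobp was at 0.759, while injured Tyrobp was at 12.2, its libraries running 1.72-fold from the lowest to the highest. Fcer1g was the reverse, with 11.9 in uninjured libraries, where library 3 stood apart, and 4.24 in injured ones. The spread was thus at or below the level of counting noise for Aif1 in both groups and for Tyrobp in uninjured libraries, and above it in the remaining sets of Tyrobp and Fcer1g. At the low counts of Aif1, a spread beyond counting noise is hard to detect. As a share of the mean, the SD in injured and uninjured libraries was 10.6% and 33.1% for Aif1, 26.3% and 15.7% for Tyrobp, and 9.38% and 26.8% for Fcer1g. The chi-square values therefore do not rank the genes by relative spread.

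The fold changes of the 3 tested genes were set against each other through ratios within each library, chosen after their values were seen, so that the p-values below describe these libraries and are not independent evidence. UMIs of Tyrobp per UMI of Fcer1g, a ratio that does not depend on library scaling, were 0.547, 0.374, 0.262 and 0.322 in injured libraries 1 to 4. In uninjured libraries 1 to 4 they were 0.256, 0.219, 0.188 and 0.207. All injured libraries were higher, with injured library 3 just above uninjured library 1. The log2 difference was 0.75 (SE 0.24, two-sided exact permutation p = 0.029, the smallest possible). It fell to 0.55 without injured library 1 (exact permutation p = 0.057) and was 0.60 at equal depth (exact permutation p = 0.057). Without any 1 uninjured library the exact permutation p was also 0.057, at log2 differences of 0.68 to 0.83. UMIs of Aif1 per UMI of Fcer1g ran from 0.0519 to 0.0661 after injury and from 0.0207 to 0.0452 without it, a log2 difference of 0.77 (SE 0.26, exact permutation p = 0.029). It was 0.69 to 0.81 without any 1 injured library (exact permutation p = 0.057) and 1.07 at equal depth (exact permutation p = 0.029). The equal-depth ratios come from the same single random draw, which lowers the already few UMIs of Aif1. How far they vary between draws was not tested, so 1.07 does not strengthen the 0.77. Between Tyrobp and Aif1 no such difference was detectable. Their ratio was 6.75 ± 2.59 after injury and 6.75 ± 2.17 without it (SD, n = 4 each), a log2 difference of -0.02 with an SE of 0.33 (exact permutation p = 0.971). This SE leaves room for unequal changes of the pair. At equal depth their log2 difference was -0.46 (exact permutation p = 0.371). The p-values of these 3 ratios are unadjusted, and the ratios describe unequal change, not relative transcript numbers.

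**Figure D3:**
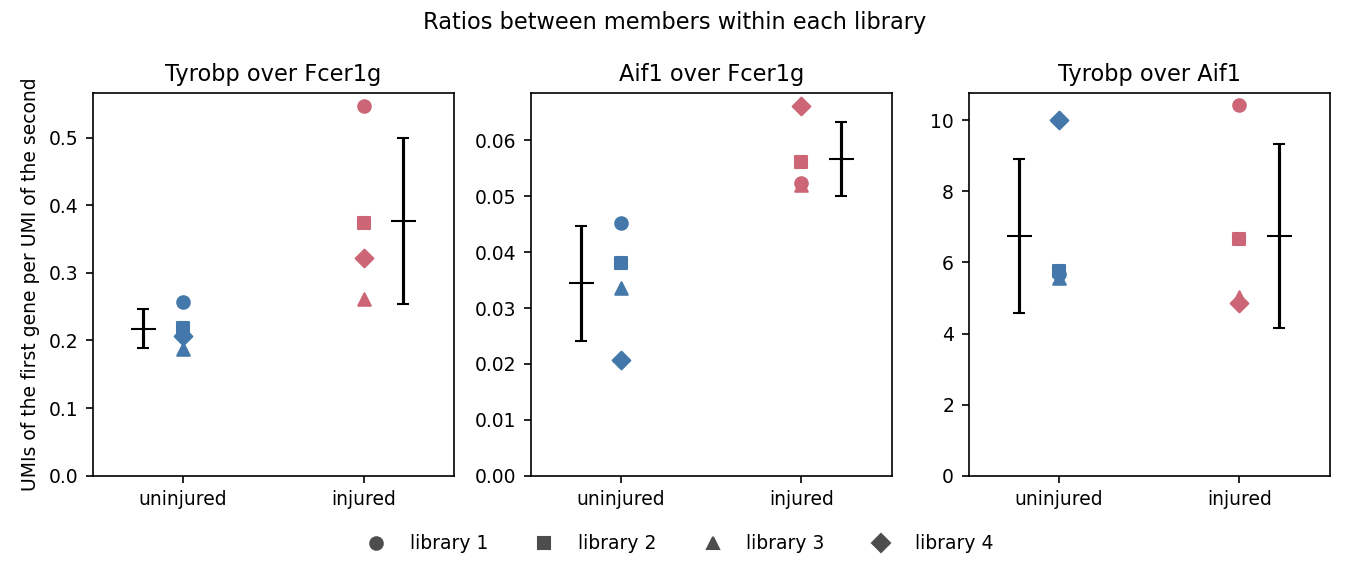
UMIs of one gene per UMI of another within each library (vertical axes from 0) for the 3 pairs of tested genes, with the mean ± SD of each group of 4 libraries in black. Injured libraries lie above uninjured ones for Tyrobp over Fcer1g and Aif1 over Fcer1g, and the groups overlap for Tyrobp over Aif1.

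Together the 4 genes made up 0.274% ± 0.0179 (SD, n = 4) of all UMIs after injury and 0.139% ± 0.0340 (SD, n = 4) without it. The sum ran from 0.248% to 0.288% in injured and from 0.118% to 0.189% in uninjured libraries, without overlap. Fcer1g gave most of it, with 2005 UMIs over the injured and 657 over the uninjured libraries, so the sum follows that gene above all.

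Other genes were compared with each member by pattern over the 8 libraries, as the root mean square difference of log2 CPM values, each centred on its own mean. This distance includes the difference between the groups, so a near gene has a similar fold change by selection. Closest to Tyrobp was ENSRNOG00000011559, at 0.14 against a median of 0.84 over 1715 genes with a mean count of at least 20. It stood at 847 ± 183.6 CPM after injury and 307 ± 26.1 CPM without it (SD, n = 4 each), with a log2 fold change of 1.32 (edgeR adjusted p = 0.00279). Fcer1g was most like ENSRNOG00000000248, at 0.13 against a median of 0.58. That gene stood at 197 ± 25.0 CPM after injury and 119.97 ± 33.1 CPM without it (SD, n = 4 each) and, like Fcer1g, did not pass the test (log2 fold change 0.58, edgeR adjusted p = 0.361). Counting noise enters these matches, as ENSRNOG00000011559 had 31 to 294 and ENSRNOG00000000248 had 10 to 64 UMIs per library. Whether either would be nearest in other libraries was not tested. The gene nearest to Aif1 lay at 0.29. Its distances cannot be set against those of Tyrobp and Fcer1g, because Aif1 had only 3 to 36 UMIs per library and counting noise adds to them. Among the members, Tyrobp lay 0.47 from Fcer1g, with 59 of the compared genes nearer to Tyrobp, and 0.37 from Aif1, with 21 nearer. Aif1 and Fcer1g were 0.39 apart. Counting noise of Aif1 enters its distances, so these values do not rank the members by likeness.

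All 3 tested genes kept a positive fold change under every setting tried, as the plot of settings shows. With total counts in place of TMM, the median log2 fold change of all tested genes moved from -0.03 to 0.09, and relative to that shift Tyrobp was at 1.49, Aif1 at 1.40 and Fcer1g at 0.69. DESeq2, run on all genes, and limma-voom called Tyrobp (adjusted p = 1.35e-05 and 0.00539) but not Aif1 (adjusted p = 0.076 and 0.0844) or Fcer1g (adjusted p = 0.158 and 0.141). With the library number as a block, edgeR called Tyrobp (log2 fold change 1.46, adjusted p = 1.95e-05), Aif1 (1.35, adjusted p = 0.00951) and Fcer1g.

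**Figure D4:**
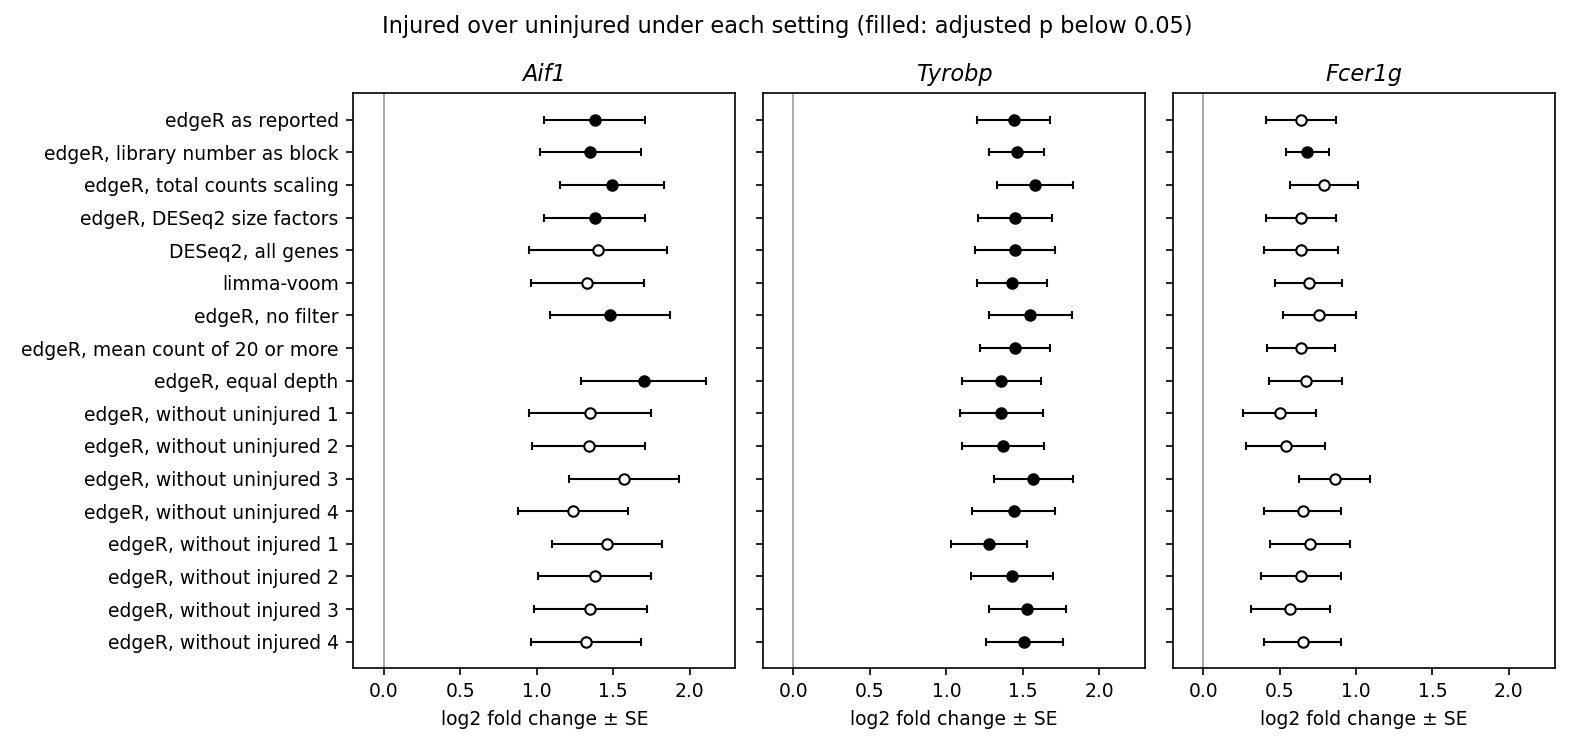
Log2 fold change of injured over uninjured cord with its SE (horizontal axes) for Aif1, Tyrobp and Fcer1g under each test, scaling, filter and left-out library (rows); filled points pass an adjusted p of 0.05. Tyrobp is filled in every row, Fcer1g only with the library number as a block, and Aif1, not tested at a mean count of 20 or more, is open in the 8 rows with a library left out and for DESeq2 and limma-voom.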

How the data were processed

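Bulk RNA from 8 rat spinal cord libraries was read by CEL-Seq2 on a HiSeq1500, per the labels' protocols. The authors deposited raw UMI counts per Ensembl gene, not normalized. HISAT2 2.0.4, HTSeq 0.6.0 and Rnor_6.0 are named, per the submitters' processing notes. The annotation release, strand setting, UMI handling and filters are not given in the sources, so overlapping or antisense genes could share counts. Each column was tied to a sample through the code in its title, with 0 left over. Of the identifiers, 0 matched the RefSeq gene table (GRCr8), so the gene lists by symbol (myeloid receptors and signalling, resting and activated microglia, lysosome, C1q, MHC class II, transcription factors and markers of other cell types) were not analysed here, and the tissue was not checked against its markers.

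The fits used edgeR 4.0.16 in R 4.3.3 (filterByExpr at a minimum count of 10 and total of 15, TMM, glmQLFit, glmQLFTest, Benjamini-Hochberg over all 3073 tested genes, which held 89.0% of counts). Cd68 was read from the fit without the filter. Each standard error is the log2 fold change over the root of its F statistic. Alternatives used DESeq2 1.42.0 and limma 3.58.1. The fits were tested on simulated data. Named genes are the 4 members and the tested gene nearest in pattern, at most 2 identifiers printed. The members, gene lists and alternatives were chosen with earlier results of these data known, and the ratios between members after seeing their values.

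The titles number the libraries of each group 1 to 4. Over the 3073 tested genes, deviations from the group mean correlated at 0.389, 0.297, 0.342 and 0.423 between libraries of the same number, each over the threshold of 0.1, and at -0.311 to 0.241 between others. The numbers were therefore also used as a block, although no label calls the libraries paired. The highest correlation between libraries of different numbers, 0.241, was over the threshold as well. The case for the block thus rests on these same counts, and p-values of the fits with it depend on that choice.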

Additional observations from a re-analysis of the deposited data

Results flagged for a closer look

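Of 14 groups of 4 values looked at, 2 had a single library far outside the rest, where the rule used flags about 1 in 20 groups by chance for continuous values, a rate not checked here for counts near 0. Cd68 was at 4.52 CPM in uninjured library 1, from 1 UMI, and at 0 in the other uninjured libraries. The rule always flags a group in which a single library is above 0, so this flag carries no further information. The ratio of Tyrobp to Aif1 UMIs was 10 in uninjured library 4, from 30 and 3 UMIs, against 5.57 to 5.75 in the other uninjured libraries.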

How the results depend on the processing

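Depth limits Cd68, at 0 to 5 UMIs per library, and Aif1, at 3 to 9 UMIs per uninjured library. Tyrobp kept its direction and call in all 20 alternatives (log2 fold change 1.22 to 1.68). Aif1 kept its direction in all 19 and lost its call in 10, DESeq2 (1.40), limma-voom (1.33) and the 8 fits without 1 library (1.24 to 1.57). Fcer1g kept its direction in all 20 (0.50 to 0.86) and passed the test in 5, the replicate block (0.68) and the block without pair 1 (0.60), 2 (0.60), 3 (0.81) or 4 (0.71). Cd68 passed in none of 18 alternatives (1.57 to 4.44, with 4.40 without uninjured 1, adjusted p 0.181 to 0.976, not given by DESeq2). The replicate block changed no other call of these genes. Without 1 library, the log2 difference in the ratio of Tyrobp to Fcer1g was 0.55 to 0.90 and of Aif1 to Fcer1g 0.54 to 0.92, with exact permutation p of 0.029 or 0.057, and of Tyrobp to Aif1 -0.26 to 0.18, reversed without injured 3 (0.10), injured 4 (0.11) or uninjured 4 (0.18). At equal depth, in a single random draw, the ratio of Tyrobp to Fcer1g gave 0.60, of Aif1 to Fcer1g 1.07 and of Tyrobp to Aif1 -0.46. These ratio alternatives were chosen after seeing the data. Over all genes, against 66 higher and 4 lower, edgeR called 105 higher with total counts, 190 and 9 without the filter, 206 and 145 with the replicate block, 101 and 26 at adjusted p below 0.10, 30 and 0 at 0.01 (175 lower at an unadjusted p under 0.05) and 8 lower at a mean count of 20 or more. DESeq2 called 19 and limma-voom 8 lower. With any 1 library left out there were between 35 and 100 higher and between 0 and 14 lower genes. The higher count moved by over 1.5 times without uninjured 1 (35), 2 (39) or 3 (35) or injured 1 (40) or 4 (100). The lower count did so without each, giving 10, 1, 0 and 14 for uninjured 1, 2, 3 and 4, then 0, 1, 1 and 12 for the injured ones (edgeR, 164 and 136 at an unadjusted p under 0.05 for the 0 of uninjured 3 and injured 1). With the block and pair 1, 2, 3 or 4 left out there were 92, 151, 144 and 305 higher and 46, 91, 64 and 196 lower. The cause of these differences was not tested.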
